A study of Mus musculus with 2 samples.

Results

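Complement genes were read from 2 single-cell RNA libraries of postischemic mouse kidney. The set held 9 genes, C3, C4b, Cfb, Cfi, Cd55, Cd59a, C1qa, C1qb and C1qc, chosen by symbol out of the 32285 genes in the tables, and all 9 were present. Both mice were 9-week-old male C57BL/6 animals that underwent bilateral ischemia-reperfusion of the kidneys and were killed 24 h later. The control mouse received saline. The treated mouse received JPI-289 100 mg/kg, an inhibitor of poly(ADP-ribose) polymerase 1 (PARP-1), and both solutions went into the peritoneal cavity immediately before reperfusion. Each group was 1 library from 1 mouse, so no test between the groups was possible, the animal, the surgery, the library and the drug cannot be told apart, and no uninjured kidney was included.

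Complement is a cascade of plasma and membrane proteins that tags injured or foreign surfaces. C1q, built from the products of C1qa, C1qb and C1qc, binds such surfaces and starts the classical pathway, in which C4b is cleaved next. All routes meet at C3, the central component, and factor B (Cfb) forms the C3-cleaving enzyme of the alternative pathway. Factor I (Cfi) is a soluble protease that inactivates the cleaved forms of C3 and C4. Cd55 takes the C3-cleaving enzymes apart on the cell surface, and Cd59a stops the assembly of the membrane attack complex. In the kidney, tubular epithelium is a known local source of C3 and factor B, and resident macrophages are a known source of C1q.

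The libraries held 38328760 UMIs (unique molecular identifiers, each marking 1 captured RNA molecule) for the control kidney and 35548396 for the JPI-289 treated one. After cell calling, 3734 and 5044 cells were kept, with a median of 2069 and 1866 UMIs, and 23 barcodes were present in both libraries. Clustering without any complement gene gave 26 clusters, and 9 classes named from marker genes had at least 50 cells in each library. Levels are in CPM (counts-per-million), the UMIs of a gene as a share of all UMIs of the class in that library. Intervals are exact 95% Poisson intervals for levels and exact binomial intervals for ratios and shares, and they cover counting error only. The PT-like (proximal tubule) class held 1773 cells in control against 1648 after JPI-289, and it expressed 15 of 15 PT markers in both libraries. Its 7 clusters were nearly all of 1 library each, with clusters 0, 8, 14 and 18 from the control and 1, 9 and 11 from the JPI-289 treated kidney. The EC-like (endothelial cell) class held 501 and 569 cells, and the macrophage-like class 129 and 171, or 3.45% and 3.39% of the kept cells.

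Summed over all barcodes, before any cell was called, all 9 complement genes had a lower level in the JPI-289 library. In such a sum, fewer cells of a type and less RNA per cell cannot be told apart. C1qa was lower by the widest margin, with 2812 UMIs (73.4 CPM) in the control and 1026 (28.9) after JPI-289, for a log2 ratio of -1.35 (-1.45 to -1.24). Cfi had 131 and 54 UMIs (-1.16, -1.66 to -0.70) and C4b 38 and 17 (-1.03, -1.97 to -0.19). These 3 were the members at least 2-fold lower, where 20.6% of the 15273 genes with at least 20 UMIs were at least 2-fold lower and 7.31% at least 2-fold higher. C3 had 843 and 399 UMIs (-0.97, -1.15 to -0.80), Cfb 2678 and 1416 (-0.81, -0.90 to -0.72), C1qb 3544 and 1914 (-0.78), C1qc 2418 and 1347 (-0.74) and Cd59a 1697 and 1215 (-0.37). Cd55, with 209 and 164 UMIs, was the member whose interval held 0 (-0.24, -0.54 to 0.06), and 45.4% of all genes had an interval wholly below 0. The median over all genes was -0.17, and 58.1% of genes were below 0.

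**Figure D1:**
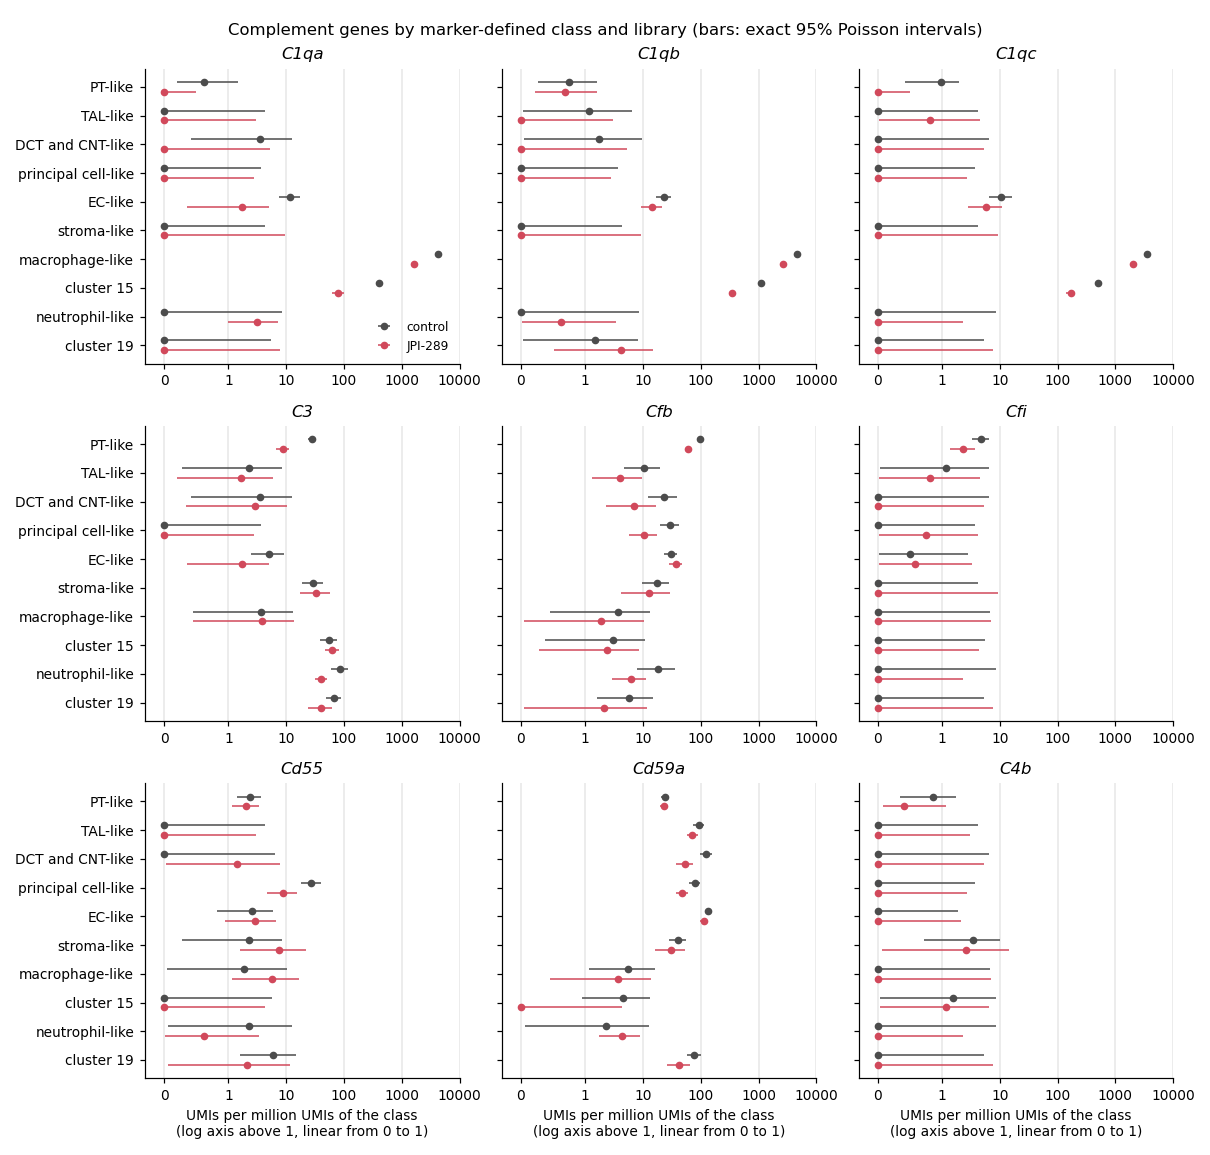
CPM (x axis, logarithmic above 1 and linear between 0 and 1) of each complement gene in 8 marker-defined classes and 2 unnamed clusters (y axis), with control in grey and JPI-289 in red and exact 95% Poisson intervals as lines. The C1q chains stood above 1600 CPM in the macrophage-like class and under 25 in the EC-like class, while Cd59a was spread over endothelium and tubule.

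Within classes, 22 pairs of a member and a class had at least 20 UMIs, from 8 of the 9 genes. Of these pairs, 7 were at least 2-fold lower in the JPI-289 library and 0 at least 2-fold higher, where 15.5% of all 63728 gene and class pairs were at least 2-fold lower and 9.05% at least 2-fold higher. The median log2 ratio of the 22 pairs was -0.76, against -0.06 over all pairs, and 20 lay below 0, as did 52.9% of all pairs. The binomial interval lay wholly below 0 in 12 pairs, held 0 in 10 and lay above 0 in 0, where it lay below 0 in 24.6% of all pairs and above 0 in 19.3%. Pairs of 1 gene share its reads and pairs of 1 class share its cells, so the 22 are not independent.

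By class, 1 of 5 member pairs was at least 2-fold lower in EC-like cells, where 18.6% of genes were lower and 5.22% higher by that much, and 1 of 5 in PT-like cells (23.6% and 9.13%). In principal cell-like cells it was 2 of 3 pairs (14% and 8.45%) and in macrophage-like cells 1 of 3 (17.4% and 11.1%). The 1 pair of distal convoluted and connecting tubule-like cells (9.6% and 7.98%) and the 1 of neutrophil-like cells (10.3% and 11.6%) were past that line, and 0 of 3 in stroma-like cells (13.9% and 11.7%) and 0 of 1 in thick ascending limb-like cells (10.7% and 8.6%). No member reached 20 UMIs in red blood cell-like cells (6.98% and 16.7%). C4b, the fourth component, reached 20 UMIs in no class. It had 12 UMIs in kept control cells and 6 in kept JPI-289 cells, of which 7 and 3 were in the PT-like class.

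**Figure D2:**
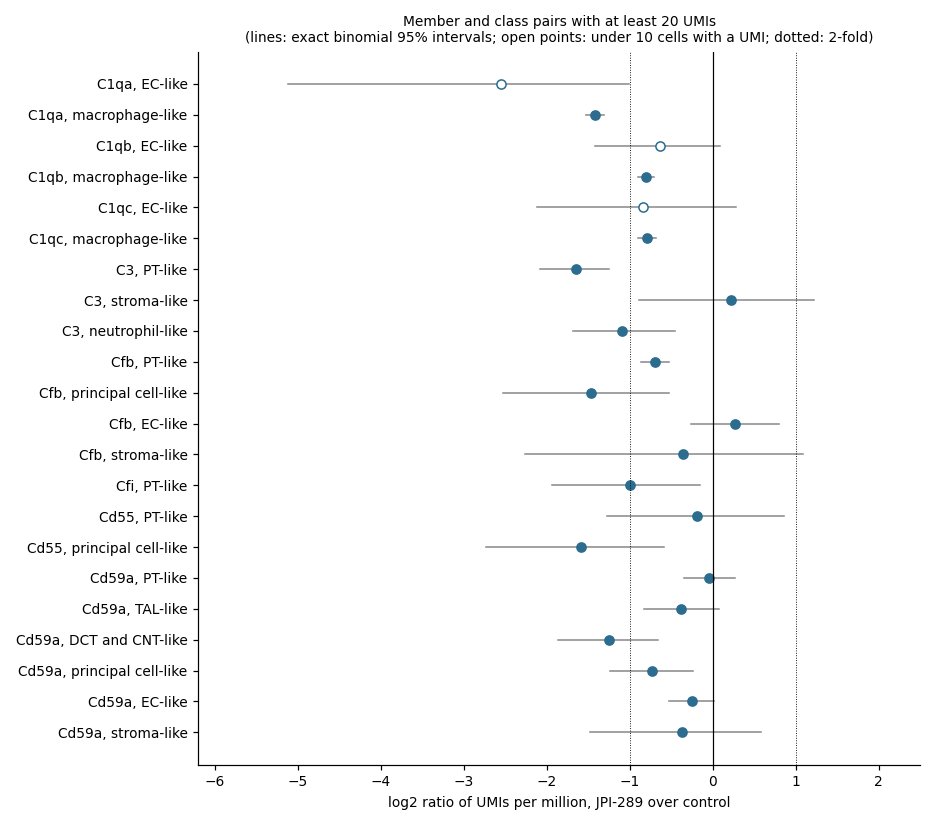
Log2 ratio of CPM, JPI-289 over control (x axis), for the 22 pairs of member and class (y axis), with exact binomial 95% intervals as lines and open points where under 10 cells of both libraries held a UMI. C3 in PT-like cells (-1.65) and C1qa in macrophage-like (-1.42) and EC-like cells (-2.55, an open point) were below -1 with their whole interval, and Cfb in EC-like cells (0.27) and C3 in stroma-like cells (0.22) were the 2 points above 0.

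The C1q chains were macrophage genes in these kidneys and were lower after JPI-289, C1qa most. The macrophage-like class held 82.6% of all C1q UMIs of kept cells in control against 85.4% after JPI-289. C1qa had 2331 UMIs in control macrophage-like cells (4304 CPM, 4131 to 4482) and 859 in JPI-289 cells (1610, 1505 to 1722), for a log2 ratio of -1.42 (-1.53 to -1.30). C1qb had 2529 (4669 CPM) and 1429 UMIs (2679), for a log2 ratio of -0.80 (-0.90 to -0.71). C1qc had 1912 (3530 CPM) and 1091 UMIs (2045), for a log2 ratio of -0.79 (-0.90 to -0.68). The control and JPI-289 intervals did not overlap for any of the 3 chains. In this class 17.4% of 6042 genes were at least 2-fold lower, and the median over them was -0.01.

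The genes lie side by side on chromosome 4, all on the minus strand, in the order C1qb (136880129 to 136886187), C1qc (136889804 to 136893065) and C1qa (136895917 to 136898803) of GRCm38, within 18675 bases. No RefSeq promoter was matched for C1qa, the chain with the lowest ratio, so it could not be looked at. Sequence from RefSeq is shown upstream of the other 2 chains, C1qb and C1qc. For C1qb it is the 250 bases before the RefSeq start. For C1qc it is the 99 bases of that window that lie outside the annotated gene. Capitals mark GAGGAA, or TTCCTC on the other strand, the purine-rich core bound by ETS factors of the PU.1 type.
C1qb, chr4:136886201-136886450, minus strand: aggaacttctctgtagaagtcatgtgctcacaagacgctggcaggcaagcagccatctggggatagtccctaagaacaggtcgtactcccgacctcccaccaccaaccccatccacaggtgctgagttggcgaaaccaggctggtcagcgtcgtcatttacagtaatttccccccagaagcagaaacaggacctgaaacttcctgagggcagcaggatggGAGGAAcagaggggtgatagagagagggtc
C1qc, chr4:136893066-136893164, minus strand: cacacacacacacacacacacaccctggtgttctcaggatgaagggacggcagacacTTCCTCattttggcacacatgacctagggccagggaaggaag
The match ended 25 bases before the RefSeq start of C1qb and 188 bases before that of C1qc. The RefSeq start of C1qc lies inside the annotated gene. The same letters occurred on either strand in 23.3% of 32851 promoter windows of 250 bases, and the matches are given as a description.

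C1qa stood apart from its partner chains within the 2 libraries. It made up 34.4% (33.3 to 35.6) of the C1q UMIs of control macrophage-like cells and 25.4% (24.0 to 26.9) of those of JPI-289 cells. C1qb took 37.3% and 42.3%, and C1qc 28.2% and 32.3%. The C1qa share was 32.0% and 23.9% over all barcodes, where no cell had been called.

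Fewer C1q molecules were read per macrophage-like cell as well. The mean was 52.5 C1q UMIs per cell in control against 19.8 after JPI-289, and the medians were 26 and 11. The cells themselves were deeper in the control, with a median of 4052 UMIs against 2820. With each cell thinned to 1000 UMIs, a step that 35 control cells and 33 others were too shallow for, the median was 12 and 4.5 C1q UMIs per cell. At least 1 chain was then seen in 91.5% of control cells (83.9 to 96.3) and 82.6% of JPI-289 cells (75.2 to 88.5), and all 3 chains in 72.3% (62.2 to 81.1) and 42.8% (34.4 to 51.4). Without thinning these shares were 92.2% and 85.4% for at least 1 chain and 77.5% and 64.3% for all 3. In PT-like cells, which should lack C1q, at least 1 chain was seen in 4 of 1333 thinned control cells and in 0 of 1136 thinned JPI-289 cells, which allows a share of cells with a UMI of up to 0.264% (a limit of 3 counts). The thinned cells had median depths of 4736 and 3146 UMIs in the macrophage-like class and 3502 and 3451 in the PT-like class.

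**Figure D3:**
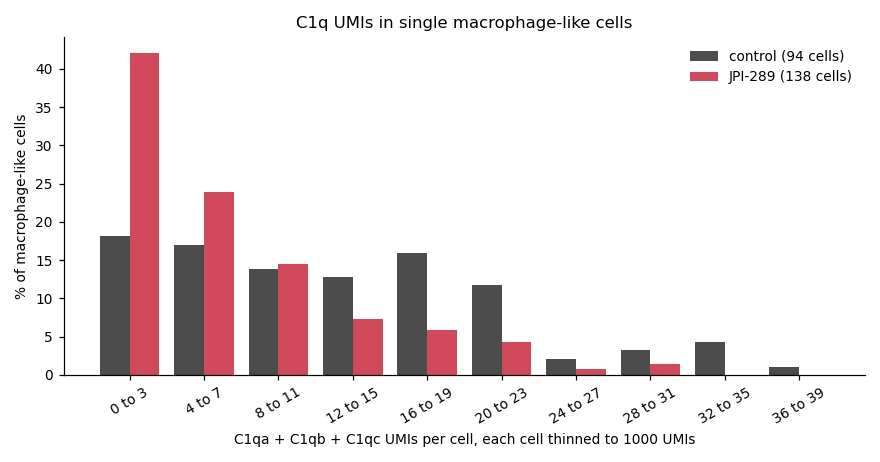
Share of macrophage-like cells (y axis, %) by the summed C1qa, C1qb and C1qc UMIs per cell after thinning to 1000 UMIs (x axis, bins of 4 UMIs), with 94 control cells in grey and 138 JPI-289 cells in red. The lowest bin held 42.0% of JPI-289 and 18.1% of control cells, and the median was 12 UMIs in control and 4.5 in JPI-289 cells.

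Other genes of the macrophage-like class were lower along with C1q. The class was led by the antigen-presentation genes H2-Aa, Cd74, H2-Eb1 and H2-Ab1, and all 10 genes of the macrophage marker list were detected in both libraries. Their summed level was 3626 CPM in control against 1387 after JPI-289. All 10 were lower in the JPI-289 library and 7 of them at least 2-fold, with a median log2 ratio of -2.28. Ms4a7 had 199 and 12 UMIs (-3.97), Cx3cr1, the fractalkine receptor of resident macrophages, 38 and 2 (-3.92), Adgre1, which encodes F4/80, 63 and 14 (-2.11) and Mrc1, a scavenging receptor, 111 and 91 (-0.26). Cd74 and H2-Aa, which serve antigen presentation, were higher in the JPI-289 cells, with 4131 and 7514 UMIs (0.89) and 1282 and 2515 UMIs (0.99). The log2 ratios of C1qb and C1qc were nearer to 0 than those of every macrophage marker except Mrc1. The estimated share of free RNA in the class was 7.40% in control against 14.8% after JPI-289. Summed neutrophil markers were at 73.8 and 386 CPM in the class and summed red blood cell markers at 79.4 and 3581 CPM. With free RNA subtracted, the C1qa, C1qb and C1qc ratios of the class were -1.30, -0.68 and -0.67. The part of the marker shifts in the C1q ratios was not tested.

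**Figure D4:**
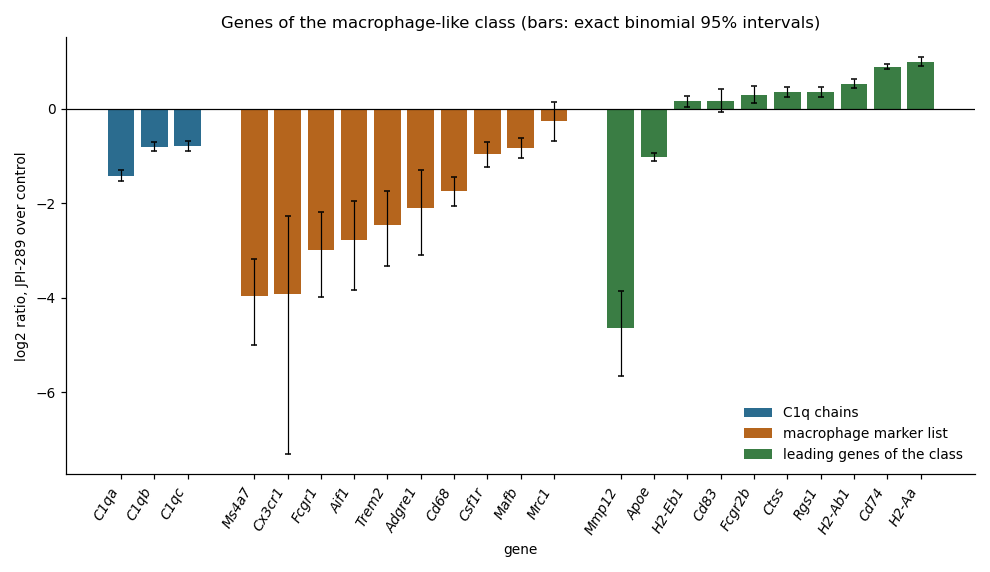
Log2 ratio, JPI-289 over control (y axis), in the macrophage-like class for the C1q chains (blue), the 10 macrophage markers (brown) and the 10 leading genes of the class (green), with exact binomial 95% intervals. The chains and all 10 markers were below 0, and 8 of the 10 leading genes, Mmp12 and Apoe excepted, were above 0.

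Another myeloid cluster carried C1q and showed a wider gap. Cluster 15, left unnamed and led by Lyz2, Fn1 and Arg1, held 71 control and 130 JPI-289 cells with both monocyte and macrophage markers. C1qa had 263 and 67 UMIs there (401 and 79.6 CPM), for a log2 ratio of -2.32 (-2.74 to -1.94). C1qb had 711 and 291 UMIs (-1.65, -1.85 to -1.45) and C1qc 333 and 142 (-1.59, -1.88 to -1.30). Few cells carried these molecules. At least 1 chain was seen in 36.2% of thinned control cells and 16.9% of thinned JPI-289 cells, and 10 cells held 92.5% of the C1qa UMIs of the JPI-289 library. C1qa was the chain with fewest UMIs in both libraries, with 20.1% of C1q UMIs in control against 13.4% after JPI-289, both below the shares of the macrophage-like class. Of its 9 macrophage markers with at least 20 UMIs, 8 were lower in the JPI-289 cells, with a median of -1.65.

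In EC-like cells the C1q ratios rested on single cells. There C1qa had 23 and 3 UMIs (-2.55, -5.12 to -1.01), C1qb 45 and 25 (-0.64) and C1qc 21 and 10 (-0.84). In the control 20 of the 23 C1qa UMIs and 41 of the 45 C1qb UMIs were in 1 cell each, and all 25 C1qb UMIs of the JPI-289 library were in 1 cell. With the top cell left out of each library the ratios were -2.62, -2.98 and 0.19, so the C1qc ratio changed sign. No UMI of the 3 chains was seen in principal cell-like or stroma-like cells of either library.

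C3 was lower in PT-like cells and in neutrophil-like cells after JPI-289 and was not distinguishable between the libraries in stroma-like cells. In PT-like cells C3 had 223 UMIs in control (27.5 CPM, 24.0 to 31.4) against 64 after JPI-289 (8.73, 6.72 to 11.1), for a log2 ratio of -1.65 (-2.08 to -1.25). The 2 intervals did not overlap, and 23.6% of 11304 genes of the class were at least 2-fold lower, with a median of -0.19. Of the 223 control UMIs, 24 were in 1 cell, while no JPI-289 cell held more than 3. With the top cell left out of each library the C3 ratio of PT-like cells was -1.56. In neutrophil-like cells, which held 196 control and 654 JPI-289 cells, C3 had 37 UMIs (85.1 CPM, 59.9 to 117) and 65 (40.2, 31.0 to 51.2). The log2 ratio was -1.09 (-1.69 to -0.46), where 10.3% of genes of that class were at least 2-fold lower. It was -0.52 with the first calling step alone and -0.92 with cells of at least 1000 UMIs, so the 2-fold line was not reached there. Summed monocyte markers of the class were at 4835 and 1369 CPM, mostly Chil3 (4538 and 1129), and their part in the C3 ratio was not tested. In stroma-like cells C3 had 25 and 13 UMIs, a ratio of 0.22 (-0.89 to 1.22), and 15 of the 25 were in 1 cell.

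C3 lies on the minus strand of chromosome 17 at 57203970 to 57228136 of GRCm38. The 250 bases before its start are shown since C3 had the lowest ratio in PT-like cells among members with at least 20 UMIs there, and its promoter is known to answer to inflammatory signals. Capitals mark a match to TTGCNNAA, the core bound by C/EBP factors.
C3, chr17:57228137-57228386, minus strand: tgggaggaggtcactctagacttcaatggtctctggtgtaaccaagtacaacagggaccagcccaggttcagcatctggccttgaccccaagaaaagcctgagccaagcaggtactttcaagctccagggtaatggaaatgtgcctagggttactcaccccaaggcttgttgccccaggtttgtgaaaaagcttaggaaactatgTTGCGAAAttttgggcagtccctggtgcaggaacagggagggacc
The match lay 45 to 38 bases before the start. On either strand this core was in 9.56% of the 32851 windows, and the NF-kB core in 1.41% of them. Neither the NF-kB core nor GAGGAA was found in the C3 window. Of the other members with a RefSeq promoter, Cd59a held GAGGAA 62 to 57 bases before its start and Cd55 held none of these 3 motifs.

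The class or cluster with the highest C3 level differed between the libraries, but within counting error. In the control, neutrophil-like cells were first at 85.1 CPM, followed by cluster 19 (led by Slc14a2, Bst1 and Tert) at 67.2, cluster 15 at 54.9, stroma-like cells at 29.0 and PT-like cells at 27.5. Each of these overlapped its neighbour within counting error. In the JPI-289 library, cluster 15 was first at 61.8 CPM, followed by neutrophil-like cells at 40.2, cluster 19 at 39.9 and stroma-like cells at 33.2, again overlapping, while PT-like cells at 8.73 lay below all of them. In cluster 15, C3 had 36 and 52 UMIs, for a log2 ratio of 0.16 (-0.47 to 0.83). PT-like cells held 57.8% of the C3 UMIs of kept control cells and 27.7% of those of the JPI-289 library. Of the UMIs of all genes in kept cells, they held 8097639 of 16696419 in control and 7329835 of 17871535 in the JPI-289 library. C3 was seen in few cells, in 1.95% (1.28 to 2.84) of control cells and 0.528% (0.194 to 1.15) of JPI-289 cells among thinned PT-like cells, and in 6.21% (3.14 to 10.8) and 3.95% (2.52 to 5.87) of thinned neutrophil-like cells. In thick ascending limb-like cells, where C3 was near 0, it was seen in 0 of 181 and 0.697% of 287 thinned cells. Median depths there were 2300 and 2464 UMIs, against 3502 and 3451 in PT-like cells. The thinned JPI-289 share of PT-like cells was thus not above that of thick ascending limb-like cells. In summed levels of the JPI-289 library, C3 was at 8.73 CPM (6.72 to 11.1) in PT-like cells and 1.63 (0.198 to 5.89) in thick ascending limb-like cells. In barcodes under 100 UMIs, which hold free RNA, C3 was at 27.2 CPM (14.1 to 47.5) in the control from 12 UMIs and at 11.6 (3.17 to 29.8) in the JPI-289 library from 4, near the levels of PT-like cells. The estimated free RNA share of PT-like cells was 8.36% and 5.67%, and with free RNA subtracted their C3 ratio was -1.68. The part of free RNA in the C3 levels of the class was not tested.

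Cfb was mainly a PT gene and was lower after JPI-289 by less than C3. PT-like cells carried 84.0% of the Cfb UMIs of kept control cells and 74.9% of those of the JPI-289 library. Cfb had 781 UMIs in control PT-like cells (96.4 CPM, 89.8 to 103) and 436 in JPI-289 cells (59.5, 54.0 to 65.3), for a log2 ratio of -0.70 (-0.87 to -0.53). A Cfb UMI was seen in 8.40% (6.97 to 10.0) of control cells and 4.93% (3.74 to 6.35) of JPI-289 cells among thinned PT-like cells, against 2.21% (0.605 to 5.56) and 0.348% (0.00882 to 1.93) of thick ascending limb-like cells. Free RNA held Cfb at 74.8 CPM (51.5 to 105) in control and 40.7 (22.3 to 68.3) after JPI-289, from 33 and 14 UMIs. PT-like cells were highest in both libraries among classes of at least 50 cells in each, and their interval did not overlap that of the EC-like class, which came next at 30.4 and 36.7 CPM. In principal cell-like cells Cfb had 29 and 14 UMIs (-1.47, -2.53 to -0.53), but the control UMIs came from 7 cells, 13 of them from 1 cell, and the ratio was -2.59 with free RNA subtracted. In stroma-like cells it had 15 and 5 UMIs (-0.35, -2.26 to 1.09). Cfb is at 34856374 to 34862518 on the minus strand of chromosome 17, and C2, its close relative on the same strand, lies 85 bases away. The annotated gene Gm20547 overlaps both.

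The 2 EC-like clusters with at least 100 cells in each library differed in opposite directions for Cfb. Over the whole EC-like class Cfb had 60 and 63 UMIs, for a log2 ratio of 0.27 (-0.26 to 0.80). In cluster 7 (led by Igfbp3, Apln and Edn1), with 107 control and 308 JPI-289 cells, Cfb had 6 and 53 UMIs, for a log2 ratio of 2.15 (1.04 to 3.76). In cluster 5 (led by Heg1, Fabp4 and Car8), with 208 and 259 cells, it had 23 and 9 UMIs, for a log2 ratio of -1.35 (-2.70 to -0.24). Cluster 5 was shallow, with median depths of 857.5 and 767 UMIs, and its summed PT marker level was 6796 CPM in control against 3266 after JPI-289. In cluster 7 that sum was 659 and 539 CPM. Summed EC markers were at 7322 and 13456 CPM in cluster 7 and at 6957 and 5349 in cluster 5, and summed red blood cell markers at 66.2 and 580 in cluster 7 and at 298 and 4892 in cluster 5. The estimated free RNA share of the EC-like class was 19.6% and 31.3%. With free RNA subtracted, the whole-class Cfb ratio was 0.82. The part of the marker shifts in the Cfb ratios, and of free RNA in those of the 2 clusters, was not tested. Cluster 17 (led by Fam167b, Plvap and Cd300lg) had 186 cells from control but 2 after JPI-289, so it gave no comparison. Its cells count in the whole-class sums, and their part in the whole-class Cfb ratio was not tested.

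Cfi was detected mostly in PT-like cells, which held 86.4% and 73.9% of its UMIs in kept cells. It had 38 UMIs in control (4.69 CPM, 3.32 to 6.44) against 17 after JPI-289 (2.32, 1.35 to 3.71), for a log2 ratio of -0.99 (-1.93 to -0.16). The 2 Poisson intervals overlapped. A Cfi UMI was seen in 0.375% of control cells and 0.264% of JPI-289 cells among thinned PT-like cells, with intervals of 0.122 to 0.873 and 0.0545 to 0.770, so at 1000 UMIs per cell no difference was detectable.

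The PT-like values of C3, Cfb and Cfi set different clusters against each other, and the clusters of 1 library differed among themselves. In the control clusters C3 was at 11.3 CPM in cluster 0 (led by Npl, Keg1 and Acnat2), 42.7 in cluster 8 (G6pc, Cyp4a14 and Slc4a4), 35.5 in cluster 14 and 16.8 in cluster 18. In the JPI-289 clusters it was at 3.41 in cluster 1 (Srxn1, Plin2 and Prdx1), 16.5 in cluster 9 (Fgb, Fgg and Fga) and 5.98 in cluster 11 (Inmt, Kap and Cyp2e1). The ranges of the 2 libraries overlapped, with JPI-289 cluster 9 (11.8 to 22.5) above control cluster 0 (7.46 to 16.5) by less than counting error. Cfb ranged from 37.7 CPM in cluster 0 to 148 in cluster 18 among the control clusters, and from 25.8 in cluster 1 to 80.5 in cluster 11 among the JPI-289 clusters. Cluster 9, whose leading genes encode the chains of fibrinogen, had the highest C3 of the JPI-289 clusters, and cluster 11, led by Inmt, Kap and Cyp2e1, the highest Cfb. Cfi ranged from 2.10 to 6.92 CPM in the control clusters and from 0.703 to 4.55 in the JPI-289 clusters. Summed injured PT markers were at 227 CPM in control against 1390 in JPI-289 PT-like cells, and summed PT markers at 16532 and 12411. The part of this in the C3, Cfb and Cfi ratios was not tested.

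**Figure D5:**
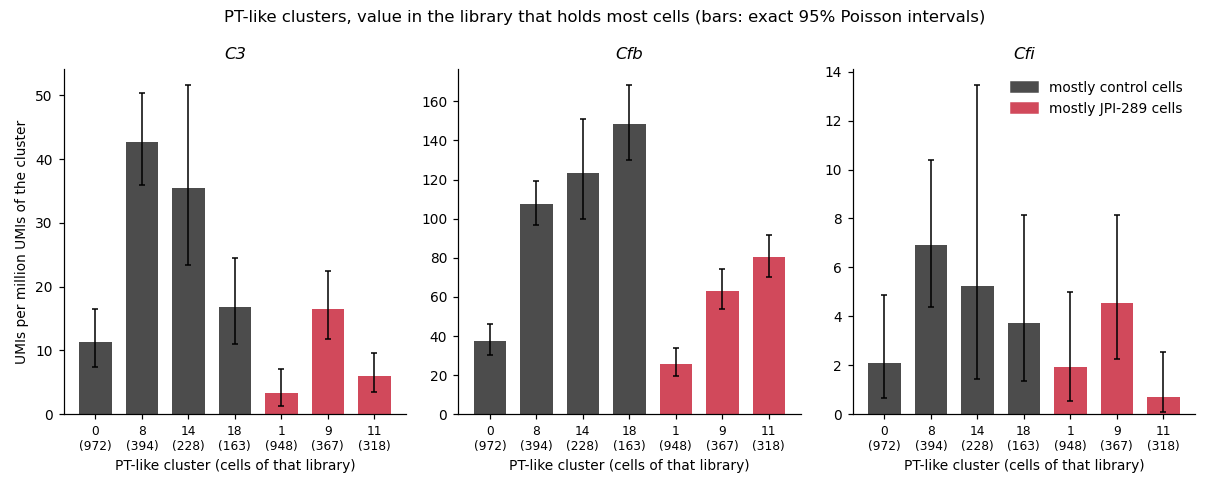
CPM (y axis) of C3, Cfb and Cfi in the 7 PT-like clusters (x axis, with the number of cells of the library shown), grey for clusters mostly of control cells and red for clusters mostly of JPI-289 cells, with exact 95% Poisson intervals. The highest C3 was in control cluster 8 (42.7), and JPI-289 cluster 9 (16.5) was above control cluster 0 (11.3).

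Of the membrane regulators, Cd59a was broadly expressed and differed by class. EC-like cells had 265 UMIs in control (134 CPM, 119 to 152) against 194 after JPI-289 (113, 97.7 to 130), for a log2 ratio of -0.25 (-0.53 to 0.02). These sums include EC-like cluster 17, with 186 control cells and 2 JPI-289 cells. Of the 265 control UMIs, clusters 5 and 7, the rest of the class, held 26 and 68. Of the 194 JPI-289 UMIs they held 16 and 178, which is all of them. Most control UMIs of the class were thus in cluster 17, and its part in the ratio was not tested. In distal convoluted and connecting tubule-like cells there were 72 UMIs (126 CPM, 98.2 to 158) and 37 (52.6, 37.1 to 72.6), for a log2 ratio of -1.24 (-1.87 to -0.66) where 9.60% of genes of the class were at least 2-fold lower. The 2 intervals did not overlap. In this class, summed markers of its own list were at 15114 and 22596 CPM and those of the thick ascending limb at 1510 and 440. Their part in the Cd59a ratio of the class was not tested. Principal cell-like cells had 78 and 64 UMIs (-0.73, -1.23 to -0.24) and thick ascending limb-like cells 81 and 88 (-0.38, -0.83 to 0.08). In the thick ascending limb-like class, summed markers of the distal convoluted and connecting tubule were at 8252 and 804 CPM, beside 7264 and 9350 for its own list, and their part in the Cd59a and Clu ratios of the class was not tested. PT-like cells had 192 UMIs (23.7 CPM) and 169 (23.1), a ratio of -0.04 (-0.35 to 0.26). Stroma-like cells had 35 and 12 UMIs (-0.36, -1.48 to 0.58). In the control, EC-like cells and the distal, thick ascending limb and principal cell-like classes formed an order in which each overlapped its neighbour, from 134 to 79.1 CPM. In the JPI-289 library EC-like cells at 113 lay above the next class, thick ascending limb-like cells at 71.8, without overlap. Within the EC-like class, cluster 7 had 68 and 178 Cd59a UMIs (0.49, 0.09 to 0.92) and cluster 5 had 26 and 16 (-0.73, -1.75 to 0.20). Summed EC markers were at 7322 and 13456 CPM in cluster 7. In cluster 5 they were at 6957 and 5349, beside PT markers at 6796 and 3266. The part of these in the Cd59a ratios of the 2 clusters was not tested.

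Cd55 was sparse. Among classes of at least 50 cells in each library it was highest in principal cell-like cells, with 27 UMIs in 18 of 81 control cells (27.4 CPM, 18.0 to 39.8) and 12 UMIs in 12 of 382 JPI-289 cells (8.92, 4.61 to 15.6), where its interval overlapped that of the next class. The log2 ratio was -1.58 (-2.73 to -0.59), where 14% of genes of the class were at least 2-fold lower, and it was -0.96 with cells of at least 1000 UMIs, short of the 2-fold line. The control cells of this class were far deeper, with a median of 9166 UMIs against 1538, and the estimated free RNA share was 3.80% and 16.97%. Summed principal cell markers were at 12189 and 7256 CPM and summed neutrophil markers at 10.1 and 536, and the part of these in the Cd55, Cfb and Cd59a ratios of the class was not tested. With cells thinned to 1000 UMIs a Cd55 UMI was seen in 2.78% (0.338 to 9.68) and 1.10% (0.301 to 2.80), so the shares could not be told apart at that depth. Without thinning, a Cd55 UMI was seen in 22.2% and 3.14% of principal cell-like cells and in 0 of 276 and 0 of 410 thick ascending limb-like cells, at median depths of 1434.5 and 1655.5 UMIs. PT-like cells had 19 and 15 Cd55 UMIs (-0.19, -1.28 to 0.86).

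C4b, Cd55 and Cd59a each have a close paralog, C4a, Cd55b and Cd59b, on the same chromosome, and reads shared by such a pair may be lost or split. C4a had 2 and 6 UMIs in kept cells, Cd55b 0 in both libraries and Cd59b 30 and 17. C4b at 34728380 to 34743882 and C4a at 34809092 to 34823464 both lie on the minus strand of chromosome 17. The values of C4b, Cd55 and Cd59a are uncertain to that extent. Gm16083, on the opposite strand, overlaps Cd55 and had 2 and 9 UMIs.

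The wider complement list of 50 further genes covers the lectin and terminal components, the other classical and alternative components, regulators and receptors. Of these, 23 genes had at least 20 UMIs in a class, in 65 pairs, of which 16 were at least 2-fold lower in the JPI-289 library and 4 at least 2-fold higher, with a median of -0.22. Of all gene and class pairs, 15.5% were lower and 9.05% higher by that much. In PT-like cells, Cpn1, a subunit of the carboxypeptidase that inactivates C3a and C5a, had 2713 and 241 UMIs, for a log2 ratio of -3.35 (-3.55 to -3.16). C1rl, a serine protease related to C1r, had 89 and 8 UMIs (-3.25), C1ra, the C1r protease itself, 25 and 4 (-2.36), and Mbl1, a lectin of the lectin pathway, 50 and 1 (-4.93, -10.8 to -2.96). C8g, a chain of the terminal component C8, was higher, with 37 and 73 UMIs (1.11, 0.53 to 1.74). These ratios also set PT-like clusters against each other that were nearly all of 1 library each. Summed injured PT markers of the class were at 227 and 1390 CPM and PT markers at 16532 and 12411. The part of this in the 5 ratios was not tested. Cpn1 also had 47 and 2 UMIs in EC-like cells (-4.05). Summed PT markers in EC-like cells were at 1792 and 1028 CPM, and their part in that Cpn1 ratio was not tested.

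In macrophage-like cells, where C1q was lower, 5 of the 12 wider genes were at least 2-fold lower and 0 higher, where 17.4% of genes were at least 2-fold lower and 11.1% at least 2-fold higher. They were Cfp, properdin, which stabilises the alternative C3-cleaving enzyme (177 and 33 UMIs, -2.38), the anaphylatoxin receptors C3ar1 (176 and 30, -2.51), C5ar1 (638 and 225, -1.48) and C5ar2 (26 and 0), and Itgb2, the shared chain of complement receptors 3 and 4 (171 and 65, -1.37). All 10 genes of the macrophage marker list were lower in these cells too, with a median log2 ratio of -2.28. The part of that shift in the ratios of these 5 genes was not tested. Itgb2 was also lower in EC-like cells (82 and 24 UMIs, -1.55). Summed neutrophil markers in EC-like cells were at 238 and 118 CPM, monocyte markers at 115 and 50.1 and macrophage markers at 58.9 and 65.8. Their part in that Itgb2 ratio was not tested. C5ar1 and Itgb2 had their highest level in neutrophil-like cells, with 537 and 1881 UMIs (-0.09) and 135 and 703 UMIs (0.48). Neutrophil-like cells also had C5ar2 at 19 and 18 UMIs (-1.97), C1qbp, a mitochondrial protein that can bind C1q, at 18 and 27 (-1.32), and Cd93, at 0 and 27.

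In stroma-like cells, C1ra was at its highest, with 58 and 30 UMIs (0.20, -0.50 to 0.85). Colec12, a collectin scavenger receptor, had 147 and 29 UMIs there (-1.18, -1.83 to -0.62). Summed fibroblast markers of the class were at 6736 and 3829 CPM and mural markers at 21260 and 14564. Its summed EC markers were at 1113 and 1610 CPM and neutrophil markers at 249 and 695. The part of these in the C1ra, Colec12 and Clu ratios of the class was not tested. Clu, clusterin, an inhibitor of terminal complex assembly, differed in opposite directions. It had 4241 and 1316 UMIs in thick ascending limb-like cells (-2.19, -2.28 to -2.10) and 68 and 65 in stroma-like cells (1.08, 0.56 to 1.59), and it was highest in principal cell-like cells, at 8636 and 9524 UMIs (-0.31). The estimated free RNA share of stroma-like cells was 8.35% in control and 17.8% after JPI-289, and its part in their Clu ratio was not tested. Cd93, a C1q-related receptor of endothelium, was highest in EC-like cells, with 1810 and 2255 UMIs (0.52), and had 4 and 37 in principal cell-like cells (2.61). Summed EC markers in principal cell-like cells were at 112 and 235 CPM, and their part in that Cd93 ratio was not tested.

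Over the 27 class and library columns with at least 50 cells, the genes most like a member, outside the complement lists, were named by Pearson's r of log2(CPM + 10), as a description over columns that share libraries and depth. Ly86, Mrc1 and Kcna3 were most like C1qa (r = 0.98, 0.97 and 0.97), and the first 2 of these were also among the 3 closest to C1qb and C1qc. The chains were closer to each other, at 0.98 to 0.99. Cd59a was followed most closely by Jup, S100a16 and Laptm4b (0.90, 0.89 and 0.89), Cd55 by Plagl1, St6gal1 and Kif1bp (0.81, 0.79 and 0.79), C3 by Igfbp6, F5 and Gpat3 (0.75, 0.73 and 0.72) and Cfi by Acot3, Slc10a5 and D630014O11Rik (0.74, 0.74 and 0.72).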

How the data were processed

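The authors deposited raw 10x count matrices, whole-number UMI counts of 32285 genes for every barcode, made from Chromium 5′ v2 libraries against mm10. The submitters' processing notes name Cell Ranger 5.0.1, and the matrix header names version 4. Cells were called in 2 steps (barcodes above a cut, the 99th percentile of UMIs over the top 3000 barcodes divided by 10, then barcodes of at least 500 UMIs that differed from free RNA at a false discovery rate of 0.01 over 10000 simulations). Cells over 50% mitochondrial UMIs were left out (540 control, 397 JPI-289). Counts were normalised, reduced to 2000 variable genes and 30 components, and clustered (scanpy 1.11.5, Leiden resolution 1, 20 neighbours) without complement genes. Scrublet marked 3 of 8778 cells, so it did not work, and no doublets were removed.

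Clusters were named "-like" from fixed markers by a score of at least 0.75 with at least 3 markers detected. This scoring was chosen with the clusters in view. Clusters led by nuclear RNA, or with more top genes of another class, stayed unnamed. Fibroblast and mural lists were joined as stroma, and clusters led by injured PT markers counted as PT where PT markers came second.

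UMIs were summed per class and library, 0.5 was added to each sum, and the log2 ratio was taken as JPI-289 over control. Free RNA was read from barcodes under 100 UMIs. The calling and ratio steps were tested on simulated data. Named were all members in each class with at least 20 UMIs, wider list genes past 2-fold there, the class in which each wider gene was highest, and the 3 genes of at least 100 UMIs most like each member. A few results that this rule names are not reported here. Cluster values, and marker genes beside C1q, were chosen after seeing the data. Gene positions came from GENCODE vM21, and promoter sequences from RefSeq (GRCm38.p6), which matched 5 of the 9 members. The members, gene lists and markers were chosen with earlier results of these data known.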

Additional observations from a re-analysis of the deposited data

How the results depend on the processing

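With 1 library per group, the ratios carry counting error only, and at least 20 UMIs over both libraries stood behind each class ratio. No paired analysis was possible because each group had 1 library. Of 13 settings, of which leaving out the top cell was chosen after seeing the data, none that gave a value turned the sign of a pair at least 2-fold lower, and 15 of the 20 pairs below 0 stayed below it wherever a value was obtained. All 13 gave a value for 18 of the 22 pairs. Cfb in EC-like cells ranged from -0.39 to 0.82, Cd59a from -0.79 to 0.38 in thick ascending limb-like and from -0.34 to 0.15 in PT-like cells, and C3 in stroma-like cells from -0.41 to 0.50. The C1qa, C1qb and C1qc ratios in macrophage-like cells were -1.16, -0.58 and -0.63 with each cell weighted equally and -1.30, -0.68 and -0.67 with free RNA subtracted. At resolution 0.5, and with each library clustered alone, no macrophage-like value was obtained, and at resolution 0.5 none for distal convoluted and connecting tubule-like cells. Of the pairs at least 2-fold lower, C3 in neutrophil-like cells fell short of that line at -0.52 with the first calling step alone and, like Cd55 in principal cell-like cells, with cells of at least 1000 UMIs (-0.92 and -0.96). Cfb in principal cell-like cells was -2.59 with free RNA subtracted. Cfb in PT-like cells was -0.51 when centred on the median of all genes. The 7 pairs at least 2-fold lower became 4 of 12 at 100 UMIs and 13 of 35 at 5 UMIs, and the 0 at least 2-fold higher became 2 at 5 UMIs and 3 with each library clustered alone. The pairs with under 10 cells holding a UMI were the 3 C1q pairs of EC-like cells, and without them, also a choice made after seeing the data, 6 of 19 were at least 2-fold lower. The shares over all genes, 15.5% at least 2-fold lower and 9.05% at least 2-fold higher, were for 20 UMIs and the main setting. No such share stands beside the counts at the other settings, so those counts are not read against all genes. The cause of the shifts between settings was not tested.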

Other observations

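A few small or unnamed groups of cells held complement UMIs outside the comparisons. Cd59a was at 669 CPM (390 to 1071) in 13 control podocyte-like cells, from 17 UMIs, and at 52.2 (14.2 to 134) in 51 JPI-289 podocyte-like cells, from 4. Summed podocyte markers of these cells were at 9329 and 2570 CPM, EC markers at 1574 and 222 and neutrophil markers at 0 and 1200. Their part in the Cd59a levels was not tested. Cd55 had 21 UMIs in 15 control urothelium-like cells, 23.9% of all Cd55 UMIs of kept control cells, and 6 in 3 JPI-289 cells. Cd59a in intercalated cell-like cells had 19 and 9 UMIs, from 49 and 62 cells. Cluster 19, which scored highest on injured PT markers without PT markers and stayed unnamed, held 46 C3 UMIs in 8 of 103 control cells, 19 of them in 1 cell, and 19 in 8 of 69 JPI-289 cells. Cluster 10, led by nuclear RNA such as Neat1 and Malat1, held 1 Cfb UMI in 50 control cells and 32 in 300 JPI-289 cells.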
